A study of Mus musculus with 8 samples.

Results

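Inhibitory receptors and ectonucleotidases are cell surface proteins that dampen T cell responses, and 10 of their genes were followed here: Ctla4, Pdcd1, Lag3, Btla, Tigit, Havcr2, Cd160, Cd200, Nt5e and Entpd1. They were chosen by gene symbol in a table of 23366 symbols, and all 10 were in it. Messenger RNA was sequenced in 8 libraries of C57BL/6 mouse CD4+ T cells, 2 in each of 4 groups. The naive group (replicates 1 and 2) held cells isolated from spleen and lymph nodes, with no treatment. The other groups started from such cells, received antibodies to CD3e and CD28, and were kept for 3 days with TGFb and IL6, the cytokine pair that turns naive cells into Th17 cells, the IL-17 makers. The Th17 group (replicates 1 and 2) had nothing added, the PAM3CSK4 group (replicates 3 and 4) also received that synthetic lipopeptide ligand of TLR2, and the biglycan group (replicates 7 and 8) received biglycan, a matrix proteoglycan. A dose of 2 ug/ml is given for PAM3CSK4, and whether it also holds for biglycan is unclear from the wording. No allele, transgene or age is named in the labels, and all 4 groups share the strain and tissue. Whether the paired libraries in each group stem from different mice or wells is not in the labels, so every p-value below measures the spread between libraries, which may be technical.

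As background, receptors of the CD28 family set the strength of T cell activation: CD28 and ICOS promote it, whereas CTLA-4, PD-1 and BTLA restrain it. LAG-3, TIGIT, TIM-3 (Havcr2) and CD160 restrain it through other ligands, and CD200 is itself a ligand for a restraining receptor. The ectonucleotidases work in a chain outside the cell, in which CD39 (Entpd1) converts ATP and ADP to AMP and CD73 (Nt5e) converts AMP to adenosine, which inhibits T cells through an adenosine receptor encoded by Adora2a. Several of these proteins appear on T cells after activation, and CD39 and CD73 have been described on Th17 cells polarized with TGF-beta and IL-6.

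The libraries held 7012244 to 12533045 counts in genes, so that 3 counts corresponded to 0.235 to 0.448 CPM (the usual unit of counts scaled to library size, here also to library composition). Libraries of one group differed by more than sampling noise in every group, with a chi-square per degree of freedom of 2.62 to 5.86 over all genes with counts. The cell labels were checked against marker genes. Summed over 7 CD4 T cell markers, levels were 4527 to 4843 CPM in the naive and 3291 to 3358 CPM in the cultured libraries. All 9 Th17 markers rose in Th17 cultures, from a summed 18.5 to 22.3 CPM in naive libraries to 1929 to 2315 CPM. Summed levels of 7 B cell markers stayed at or under 4.18 CPM in every library. The sums of 11 CD8 T and natural killer cell markers were 98.5 to 99.6 CPM in naive libraries. They were 51.0 to 53.2 CPM in Th17, 68.0 to 70.2 CPM in PAM3CSK4 and 56.9 to 58.2 CPM in biglycan libraries. Among these markers, Ncr1 was at 0 counts in all groups. Summed levels of 10 myeloid markers were 314 to 330 CPM in naive, 228 to 234 CPM in Th17, 203 CPM in PAM3CSK4 and 215 to 218 CPM in biglycan libraries. Most of this was Ctss, which encodes the protease cathepsin S, at group means of 197 to 308 CPM, and the myeloid marker Tyrobp was at 0 counts in all groups. In bulk RNA, a smaller number of cells expressing a gene and less of its RNA per cell cannot be told apart.

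Nt5e and Ctla4 were the most abundant of the 10 transcripts in the cultures. Levels can be compared between genes only per length, for which the authors' deposited RPKM values (reads scaled for library size and gene length) were used. In naive cells the order was led by Ctla4, at 25.0 and 31.0 RPKM, and Btla, at 22.4 and 24.6 RPKM, followed by Nt5e at 5.10 and 4.51 RPKM. Cd200 came next at 3.01 and 3.72 RPKM, ahead of Tigit and Pdcd1, whose naive ranges overlapped at 1.07 to 1.43 RPKM. Cd160 stood at 0.555 and 0.753 RPKM, and the last 3, Lag3, Entpd1 and Havcr2, overlapped between 0 and 0.0640 RPKM.

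The order was different in Th17 cultures. Nt5e stood first, at 395 and 390 RPKM, ahead of Ctla4 at 236 and 218 RPKM. Pdcd1 had 21.5 and 24.0 RPKM, Lag3 15.0 and 15.5 RPKM, Btla 13.2 and 14.2 RPKM, and Cd200 8.39 and 8.81 RPKM, and none of these ranges overlapped with its neighbour in the order. The low end was not separable, since the range of Entpd1 (0.909 and 1.05 RPKM) overlapped with that of Tigit (1.01 and 0.388 RPKM), which overlapped with that of Cd160 (0.390 and 0.535 RPKM). In the PAM3CSK4 and biglycan cultures Btla stood above Lag3, with 17.2 and 14.4 RPKM against 11.1 and 9.95 RPKM with PAM3CSK4, and 17.2 and 16.4 RPKM against 15.4 and 13.5 RPKM with biglycan. By mean CPM among all genes with counts, Nt5e ranked 5228 of 13615 in naive cells and 13 of 14376 in Th17 cultures, and Ctla4 went from rank 2093 to rank 105.

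**Figure D1:**
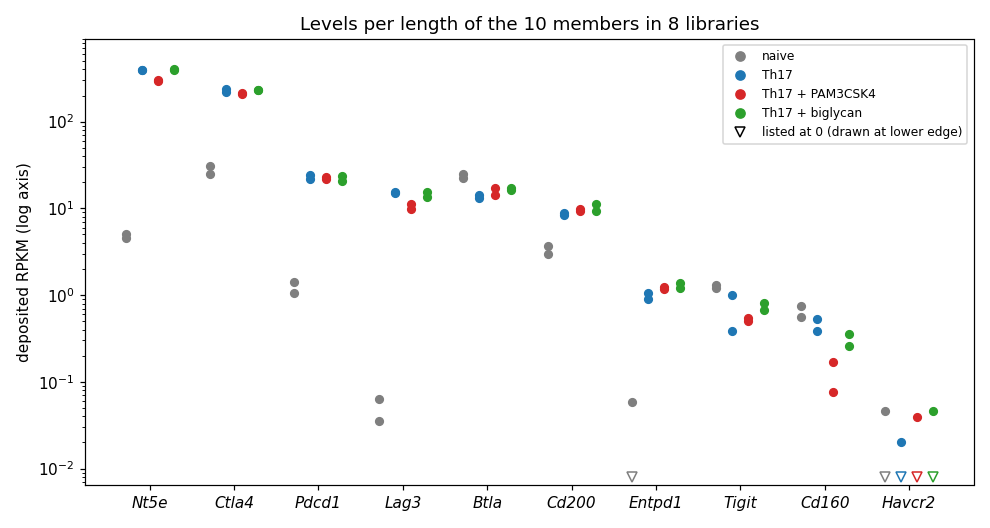
Levels per length of the 10 genes, as the authors' deposited RPKM on a log axis, with 1 point per library and colours for the 4 groups; open triangles mark libraries listed at 0. Nt5e and Ctla4 lie above 200 RPKM in all cultured libraries, and Lag3 and Entpd1 lie below 0.1 RPKM in naive libraries.

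The first comparison, Th17 cultures against naive cells, shows which of these genes differ between resting cells and cells activated and polarized for 3 days. The genes that rose were Lag3, Nt5e, Entpd1, Pdcd1, Ctla4 and Cd200, and Btla and Tigit fell. Activation, polarization and time in culture changed together between these groups and cannot be told apart. Of the 10 genes, 9 passed the filter on low counts, of which 6 rose and 2 fell by edgeR's quasi-likelihood test at an adjusted p under 0.05. Over all 11629 genes tested, 72.1% were called in this comparison, 37.8% as higher and 34.4% as lower, so a high count of called members is near the background. All 9 had libraries that did not overlap between the groups, against 84.0% of all genes tested. Their median log2 fold change was 2.70, against 0.03 over all genes tested, with Lag3 and Entpd1 having passed the filter only through their culture libraries.

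Ctla4, which encodes the receptor that competes with CD28 for CD80 and CD86, had 111 and 129 CPM in naive libraries and 805 and 752 CPM in Th17 libraries. The groups were far apart, and naive cells already held the transcript at a clear level. The increase was 6.50-fold, a log2 fold change of 2.70 ± 0.09 (SE, n = 2 per group, adjusted p = 2.35e-16). Pdcd1, which encodes PD-1, had 4.48 and 5.56 CPM in naive libraries and 71.4 and 79.9 CPM in Th17 libraries. Both Th17 libraries lay above both naive ones, by 14.9-fold (log2 3.90 ± 0.14, adjusted p = 1.56e-15). Btla, the CD28 family receptor that binds HVEM, went the other way. It had 178 and 185 CPM in naive libraries and 80.7 and 90.5 CPM in Th17 libraries, a fall by 1.09 ± 0.09 on the log2 scale (adjusted p = 6.04e-10). Per length, the ratio of Pdcd1 to Btla was 0.0477 and 0.0582 in naive libraries and 1.64 and 1.70 in Th17 libraries, so the order of these 2 receptors was inverted.

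Lag3 encodes a CD4-related receptor for MHC class II. Its naive libraries held 1 and 2 counts and its Th17 libraries 616 and 562 counts, or 52.0 and 54.3 CPM. Naive cells therefore held almost no Lag3 reads. The ratio of the group levels was 259, with a 95% counting interval of 88.3 to 1256 that rests on 3 naive counts. The rise fitted by edgeR was 244-fold, with a 95% interval of 166 to 358 (adjusted p = 3.18e-16), and rests on the same naive counts. Tigit, a receptor for CD155, was low throughout, with 24 and 24 counts in naive and 18 and 8 counts in Th17 libraries. At 3.58 and 3.03 CPM against 1.52 and 0.774 CPM, the groups did not overlap, and Tigit fell by 1.49 ± 0.41 on the log2 scale (adjusted p = 0.00326, and 0.00123 to 0.0492 over the 10 alternatives tried). The value was -2.07 without Th17 replicate 1 and -1.11 without Th17 replicate 2. By the deposited RPKM, Tigit stood at 1.21 and 1.31 in naive and 1.01 and 0.388 in Th17 libraries. The fall was smaller by that measure, so its size depends on the measure used. Cd160, an HVEM receptor best known on cytotoxic lymphocytes, had 21 and 30 counts in naive and 20 and 26 counts in Th17 libraries. Its level was 3.14 and 3.79 CPM against 1.69 and 2.51 CPM, and the difference of -0.74 on the log2 scale had a 95% interval of -1.51 to 0.03 (adjusted p = 0.0772).

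Summed markers of CD8 T and natural killer cells lay at 98.5 to 99.6 CPM in naive and 51.0 to 53.2 CPM in Th17 libraries, and their part in the levels of Cd160 and Tigit was not tested. Havcr2, which encodes TIM-3, had 0 and 3 counts in naive and 0 and 1 counts in Th17 libraries, and 0 and 2 counts in each of the other culture groups. It did not pass the filter, and at this depth no difference in Havcr2 was detectable in any comparison. Cd200, the ligand of CD200R, had 16.3 and 19.8 CPM in naive libraries and 36.7 and 39.1 CPM in Th17 libraries. Both Th17 libraries were higher, by 2.08-fold (log2 1.06 ± 0.13, adjusted p = 3.13e-07).

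Both ectonucleotidases rose, from and to very different levels. Nt5e had 40.9 and 34.0 CPM in naive libraries and 2502 and 2476 CPM in Th17 libraries. The increase was 66.7-fold (log2 6.06 ± 0.11, adjusted p = 9.37e-20), with the 2 Th17 libraries close together. Entpd1 had 0 and 5 counts in naive libraries and 82 and 82 counts in Th17 libraries, or 6.92 and 7.93 CPM. It rose by a fitted 20.9-fold with a 95% interval of 10.7 to 40.9 (adjusted p = 4.07e-08), and this fold rests on 5 counts in 1 naive library. The fitted log2 fold change of 4.39 was 3.52 without naive replicate 1, and without naive replicate 2 no naive counts were left (fitted value 9.24, which is no measured fold). In Th17 libraries the RPKM ratio of Nt5e to Entpd1 was 434 and 370, so the transcript of the AMP-hydrolysing step was far above that of the ATP-hydrolysing step per length. In naive replicate 2 the ratio was 77, and in naive replicate 1 Entpd1 was listed at 0. Calls for all 8 genes held under each of the 10 alternatives tried. RefSeq places Tigit over part of Zbtb20 and Entpd1 over the predicted genes Gm16027, Gm8783 and Gm41846, and whether the counting used strand is not given in the sources used here, so reads of Tigit and Entpd1 are uncertain to that extent.

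**Figure D2:**
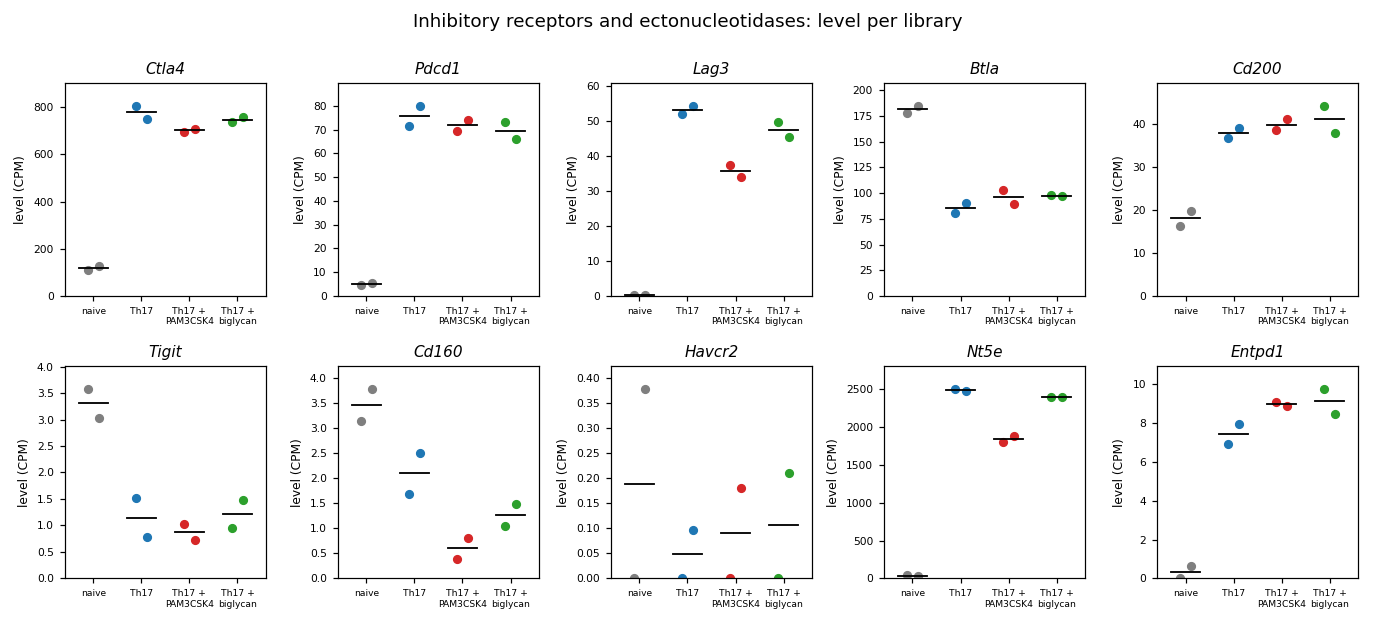
Level of each of the 10 genes in CPM (vertical axes from 0, each with its own scale) in the 8 libraries, with 1 point per library and a bar at the group mean of 2. Lag3 and Nt5e drop from the Th17 to the PAM3CSK4 cultures without overlap, and Havcr2 stays below 0.4 CPM everywhere.

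Upstream sequence is shown for the 3 genes with the highest RPKM in Th17 cultures, which all rose, and for Btla, which fell. The sequences are the 250 bases before the RefSeq start in build GRCm38.p6, written 5′ to 3′ on the strand of the gene, with motif matches in capitals. Nt5e lies at chr9:88327359-88327608 (plus strand), Ctla4 at chr1:60908775-60909024 (plus), Pdcd1 at chr1:94052554-94052803 (minus) and Btla at chr16:45224087-45224336 (plus).
Nt5e: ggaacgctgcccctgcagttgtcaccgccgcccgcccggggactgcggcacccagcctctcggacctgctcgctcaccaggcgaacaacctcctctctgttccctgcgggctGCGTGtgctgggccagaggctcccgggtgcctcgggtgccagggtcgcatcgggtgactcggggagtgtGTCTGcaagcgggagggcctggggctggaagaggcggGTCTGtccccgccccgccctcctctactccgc
Ctla4: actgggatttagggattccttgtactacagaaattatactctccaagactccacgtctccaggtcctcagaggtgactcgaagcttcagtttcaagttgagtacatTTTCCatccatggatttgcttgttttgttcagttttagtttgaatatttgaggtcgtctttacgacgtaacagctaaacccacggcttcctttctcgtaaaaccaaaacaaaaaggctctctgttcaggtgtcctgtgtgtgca
Pdcd1: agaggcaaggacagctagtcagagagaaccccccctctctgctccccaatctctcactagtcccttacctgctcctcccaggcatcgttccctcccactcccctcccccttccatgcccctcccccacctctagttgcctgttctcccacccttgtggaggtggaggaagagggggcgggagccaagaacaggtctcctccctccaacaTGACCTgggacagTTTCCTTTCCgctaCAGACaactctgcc
Btla: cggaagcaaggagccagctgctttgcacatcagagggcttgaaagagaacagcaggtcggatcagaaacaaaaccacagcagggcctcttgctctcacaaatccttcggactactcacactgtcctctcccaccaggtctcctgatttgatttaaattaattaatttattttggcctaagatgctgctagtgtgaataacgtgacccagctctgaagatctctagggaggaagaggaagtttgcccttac
These 6 short motifs were searched on both strands: AP-1 (TGANTCA), NFAT (GGAAA), STAT (TTCNNNGAA), AHR (GCGTG), ROR (AGGTCA) and SMAD (CAGAC).

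Positions are counted back from the start. The Nt5e window held an AHR match at -138 to -134 and SMAD matches at -69 to -65 and -32 to -28. The Pdcd1 window held NFAT matches at -28 to -24 and -23 to -19, a ROR match at -41 to -36 and a SMAD match at -14 to -10. The Ctla4 window held 1 NFAT match, at -144 to -140, and the Btla window held none of the 6 motifs. The NFAT motif occurred in 55.6% of 32851 windows of the same length over all genes, SMAD in 42.2%, AHR in 28.2% and ROR in 14% of them, so these matches are common letters and describe the windows only. The promoter table held windows for 9 of the 10 genes. By RefSeq order Ctla4 lies between Cd28 and Icos, and Btla is next to Cd200.

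Binding partners of the receptors moved in both directions between naive and Th17 cells, as did genes in general. Over all genes tested, 37.8% were called as higher and 34.4% as lower. Of 7 genes of the B7 and CD28 family, 4 rose and 2 fell. Cd28, the activating counterpart of Ctla4, rose from 1164 and 1009 CPM to 2736 and 2505 CPM (log2 1.27 ± 0.09, adjusted p = 5.35e-11), and Icos rose by 1.38 ± 0.09. Per length, the ratio of Ctla4 to Cd28 was 0.213 and 0.286 in naive and 0.672 and 0.680 in Th17 libraries. Cd80, a ligand shared by both receptors, had no counts in naive libraries and 51 counts in Th17 libraries, which is at least 11.2-fold higher, with 3 counts over both naive libraries as the floor. Cd80 passed the filter on low counts only through its culture libraries. Cd86, the other shared ligand, differed by 0.51 on the log2 scale and was not called (adjusted p = 0.0795). Cd274, which encodes the PD-1 ligand PD-L1, fell while Pdcd1 rose. It had 65.0 and 60.3 CPM in naive and 12 and 8.22 CPM in Th17 libraries, a fall by 2.62 ± 0.15 on the log2 scale (adjusted p = 1.92e-12). The ligand PD-L2 (Pdcd1lg2) rose by 0.95 ± 0.34 (adjusted p = 0.0186), from 1.64 and 2.53 CPM to 4.39 and 3.77 CPM, and this call was lost without naive replicate 1 (0.69, adjusted p = 0.135) or Th17 replicate 1 (0.83, adjusted p = 0.0906).

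Of 11 tested partners of the other receptors, 5 rose and 6 fell, where 72.1% of all genes tested were called. The direction of Hmgb1, counted as a fall, depends on the measure. Its mean was 15.6 CPM in naive and 9.40 CPM in Th17 libraries, but 0.437 and 0.803 by the deposited RPKM. Among the partners of TIGIT, the genes Pvr, Cd226 and Cd96 fell, whereas Pvrl3 (nectin-3) rose from 2 to 59 counts, a ratio of 19.4 with a 95% counting interval of 5.14 to 164 that rests on 2 counts in naive replicate 1. Pvrl3 passed the filter on low counts only through its culture libraries. Pvr, which encodes CD155, fell from 110 and 117 CPM to 26.4 and 25.2 CPM. Cd226, the activating receptor that competes with TIGIT, fell from 120 and 110 CPM to 1.35 and 3.09 CPM, or by 5.72 ± 0.20 on the log2 scale (adjusted p = 5.06e-16; without Th17 replicate 2, the value was -6.40). Cd96, a further receptor for CD155, fell by 2.82 ± 0.10. In the HVEM pathway, Tnfrsf14 (HVEM itself) rose by 0.63 ± 0.11 and its ligand Tnfsf14 (LIGHT) by 3.29 ± 0.37. Lgals9, a galectin that binds TIM-3, fell by 0.80 ± 0.08, and Cd200r1, the receptor of CD200, fell by 1.25 ± 0.16. Lgals3, a galectin that binds LAG-3, rose by 6.53 ± 0.24.

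**Figure D3:**
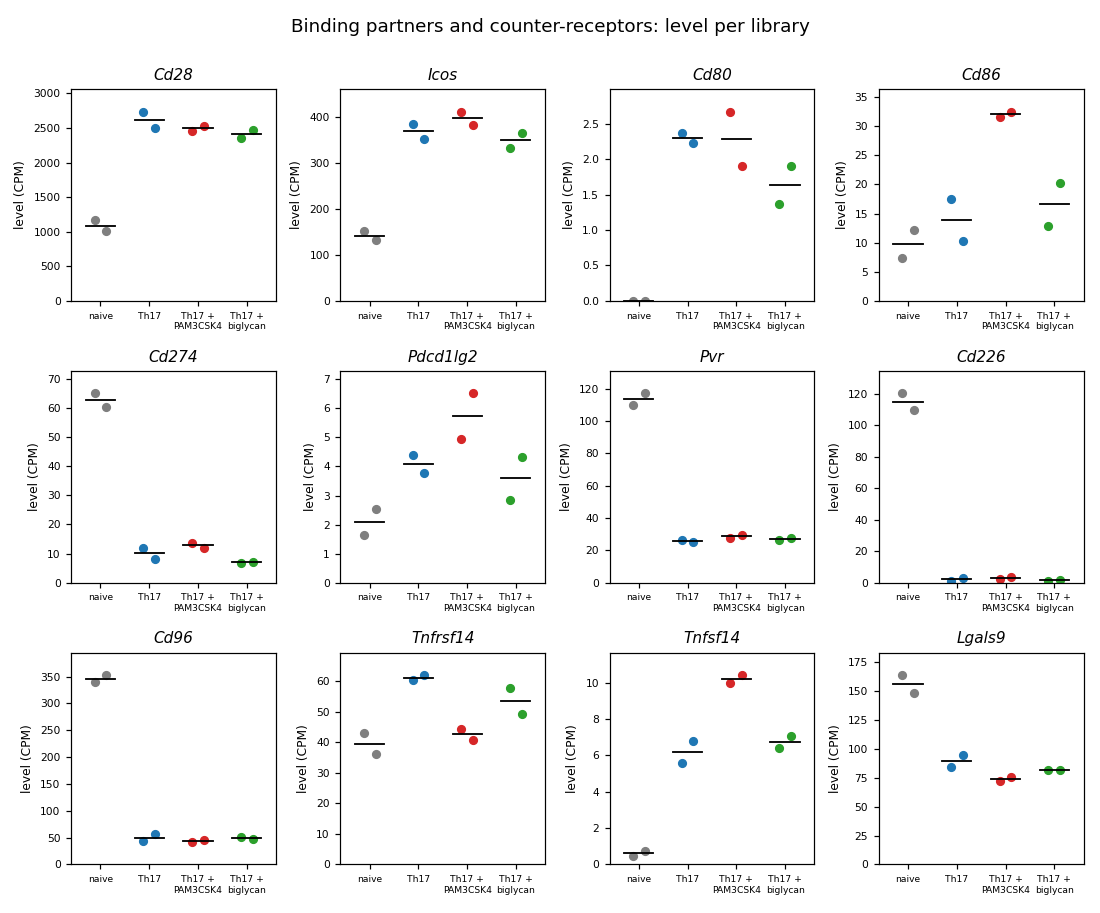
Level in CPM of 12 partner and counter-receptor genes in the 8 libraries, with 1 point per library and a bar at the mean of 2. Cd274, Pvr, Cd226 and Cd96 are highest in naive cells, and Cd86 is highest with PAM3CSK4, at 31.5 and 32.5 CPM.

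Around the ectonucleotidases, 3 of 10 tested genes for adenosine and ATP handling rose and 6 fell, where 72.1% of all genes tested were called. Slc29a1, a transporter that carries adenosine across the membrane, rose from 33.5 and 41.0 CPM to 103 and 100 CPM (log2 1.44 ± 0.10, adjusted p = 3.39e-11). Ada, which deaminates adenosine, fell from 13 and 11.2 CPM to 4.31 and 3.87 CPM, or by 1.56 ± 0.23 on the log2 scale (adjusted p = 4.92e-06). Adora2a, the main adenosine receptor gene of T cells, had 17.9 and 20.5 CPM in naive and 17.4 and 16.7 CPM in Th17 libraries and was not called (adjusted p = 0.272). Pnp, which splits purine nucleosides, rose by 1.07 ± 0.18, whereas the transporter gene Slc29a2 fell by 2.35 ± 0.58 and the kinase gene Adk by 0.27 ± 0.09. P2rx7, which encodes an ATP-gated channel, fell by 0.40 ± 0.15. P2rx4, a further ATP-gated channel gene, was called as higher (0.35) and Panx1, a channel that releases ATP, as lower (-0.19). Both calls were lost with DESeq2 (adjusted p = 0.101 and 0.107), and 6 and 7 of 10 alternatives ended them, among them the fits without naive replicate 1 (0.109 and 0.0895), naive replicate 2 (0.0895 and 0.0869) and Th17 replicate 2 (0.334 and 0.243). The call for Adk was lost without Th17 replicate 2 (-0.23, adjusted p = 0.0619), and that for P2rx7 with DESeq2 (-0.41, adjusted p = 0.0597) and without naive replicate 1 (-0.28, adjusted p = 0.171) or Th17 replicate 2 (-0.36, adjusted p = 0.0943).

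Among 8 tested nucleotide-hydrolysing or related enzymes outside the 10 genes, 2 rose and 5 fell. This count and the other list counts in this paragraph stand beside a share of 72.1% called over all genes tested. Cd38, which degrades NAD, had 0 and 6 counts in naive libraries and 38.9 and 31.4 CPM in Th17 libraries. Its fitted rise of 6.38 ± 0.33 was 5.51 without naive replicate 1, and without naive replicate 2 no naive counts were left. Entpd7 rose by 1.66 ± 0.14, whereas Entpd5 fell by 1.57 ± 0.09 and Entpd6 by 2.24 ± 0.14. Of 8 other tested inhibitory receptors and adaptors, 3 rose and 4 fell, led by Cd101, which rose by 4.08 ± 0.12, and Pag1, an adaptor that recruits the kinase Csk, which fell by 2.41 ± 0.10. Of 12 tested genes that act below the receptors, 5 rose and 5 fell, and Ptpn6, which encodes the phosphatase SHP-1, fell by 1.02 ± 0.09. Of 8 tested genes for trafficking and shedding of these receptors, 2 rose and 3 fell. Trat1, an adaptor that helps to bring CTLA-4 to the surface, fell by 6.93 ± 0.19, Lrba, which protects CTLA-4 from degradation, fell by 0.80 ± 0.07, and Adam10, a protease that sheds LAG-3, rose by 1.09 ± 0.11. Of 20 transcription factors linked to these genes, 10 rose and 10 fell, with Maf up by 6.30 ± 0.14 and Nr4a1 down by a log2 fold change of -2.19 ± 0.08.

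**Figure D4:**
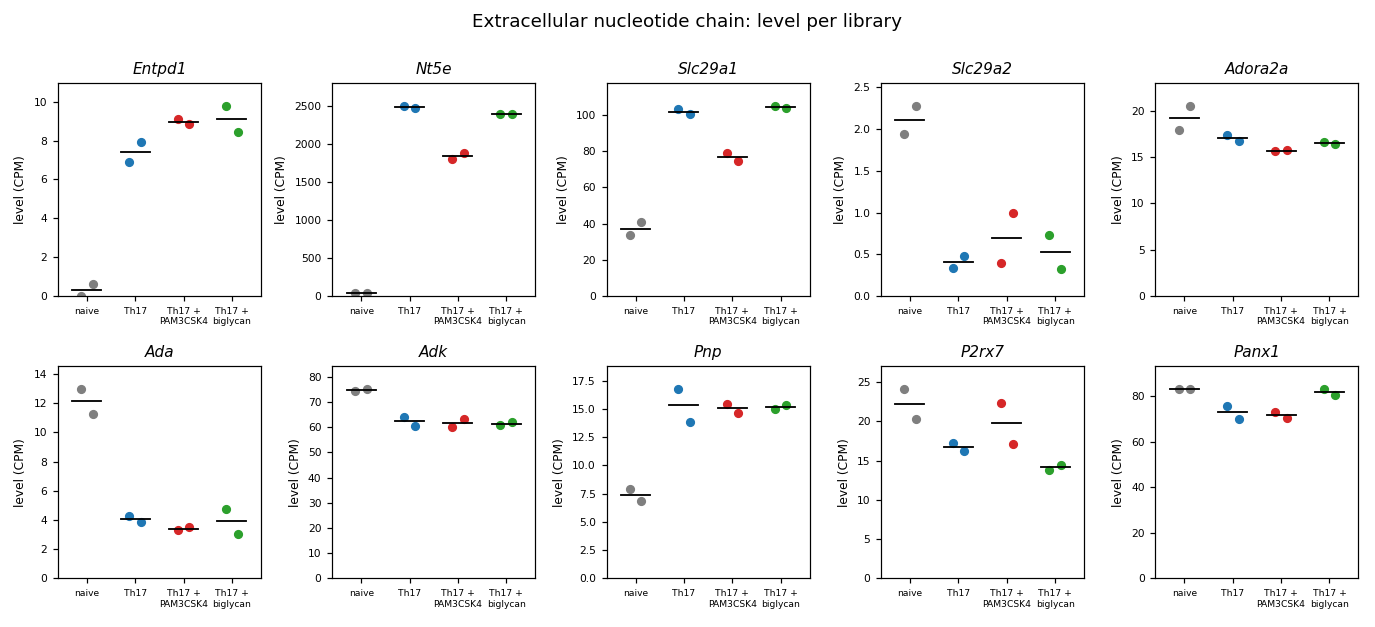
Level in CPM of Entpd1, Nt5e and 8 genes for adenosine and ATP handling in the 8 libraries, with 1 point per library and a bar at the mean of 2. Nt5e and Slc29a1 are lowest among cultures in the 2 PAM3CSK4 libraries, at 1799 and 1878 CPM and at 78.8 and 74.4 CPM.

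The second comparison, PAM3CSK4 cultures against Th17 cultures, shows what differed when a TLR2 ligand was present during polarization. Lag3, Nt5e and Cd160 fell, none of the 10 genes rose, and Ctla4, Pdcd1, Btla, Cd200, Tigit and Entpd1 were not called. The 3 genes that fell are 3 of 9 tested. Over all genes tested, 9.99% were called, 5.21% as higher and 4.78% as lower. The libraries did not overlap for 5 of the 9 genes, against 53.0% of all genes tested. Their median log2 fold change was -0.15, and the median over all genes tested was 0 to 2 decimals (-0.0024).

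Nt5e had 2502 and 2476 CPM in Th17 libraries and 1799 and 1878 CPM with PAM3CSK4. Both PAM3CSK4 libraries lay below both Th17 libraries, and far above the naive level. The decrease was to 0.739 of the Th17 level, a fall by 0.44 ± 0.08 on the log2 scale (adjusted p = 0.00156, and 6.81e-07 to 0.0407 over 9 alternatives). Lag3 had 52.0 and 54.3 CPM in Th17 libraries and 37.5 and 33.9 CPM with PAM3CSK4. The level was 0.673 of that in Th17 libraries (95% interval 0.582 to 0.778; adjusted p = 0.000974, and 1.20e-05 to 0.0312 over 9 alternatives). Per length, the ratio of Lag3 to Pdcd1 was 0.695 and 0.646 in Th17 libraries, 0.510 and 0.434 with PAM3CSK4, and 0.655 and 0.651 with biglycan.

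Cd160 had 20 and 26 counts in Th17 libraries and 5 and 9 counts with PAM3CSK4, or 1.69 and 2.51 CPM against 0.392 and 0.814 CPM. The groups did not overlap, at levels near the limit of these libraries. Cd160 fell by 1.80 ± 0.47 on the log2 scale (adjusted p = 0.0177, and 0.00505 to 0.224 over 9 alternatives). With DESeq2 the call was lost (-1.82, adjusted p = 0.0525). It was also lost when Th17 replicate 2 (-1.49, adjusted p = 0.224) or PAM3CSK4 replicate 3 (-1.34, adjusted p = 0.214) was left out. Summed CD8 T and natural killer cell markers, the cells in which Cd160 is best known, were 51.0 to 53.2 CPM in Th17 and 68.0 to 70.2 CPM in PAM3CSK4 libraries, of which 1 of 4 tested genes, Klrd1, rose, and Ncr1 was at 0. Their part in the value of Cd160 was not tested.

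The 6 genes without a call differ in how far their data limit a difference. For Ctla4, at 805 and 752 CPM against 696 and 710 CPM, the log2 difference was -0.15 with a 95% interval of -0.31 to 0.02 (adjusted p = 0.289). For Pdcd1, at 71.4 and 79.9 CPM against 69.5 and 74.2 CPM, the interval was -0.26 to 0.12. Btla had 80.7 and 90.5 CPM against 103 and 89.0 CPM, with an interval of -0.01 to 0.35. None of these 3 intervals reaches the log2 difference of Lag3, -0.57. Cd200 had 36.7 and 39.1 CPM against 38.7 and 41.2 CPM, with an interval of -0.15 to 0.30. Entpd1 and Tigit were much less well measured, with intervals of -0.18 to 0.73 and of -1.42 to 0.61. Tigit rests on 18 and 8 counts in Th17 libraries and 13 and 8 counts with PAM3CSK4, and these overlapped. For Entpd1 both PAM3CSK4 libraries, at 9.10 and 8.86 CPM, lay above both Th17 libraries, at 6.92 and 7.93 CPM, without a call. The RPKM ratio of Nt5e to Entpd1 was 239 and 262 with PAM3CSK4, against 434 and 370 in Th17 libraries.

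**Figure D5:**
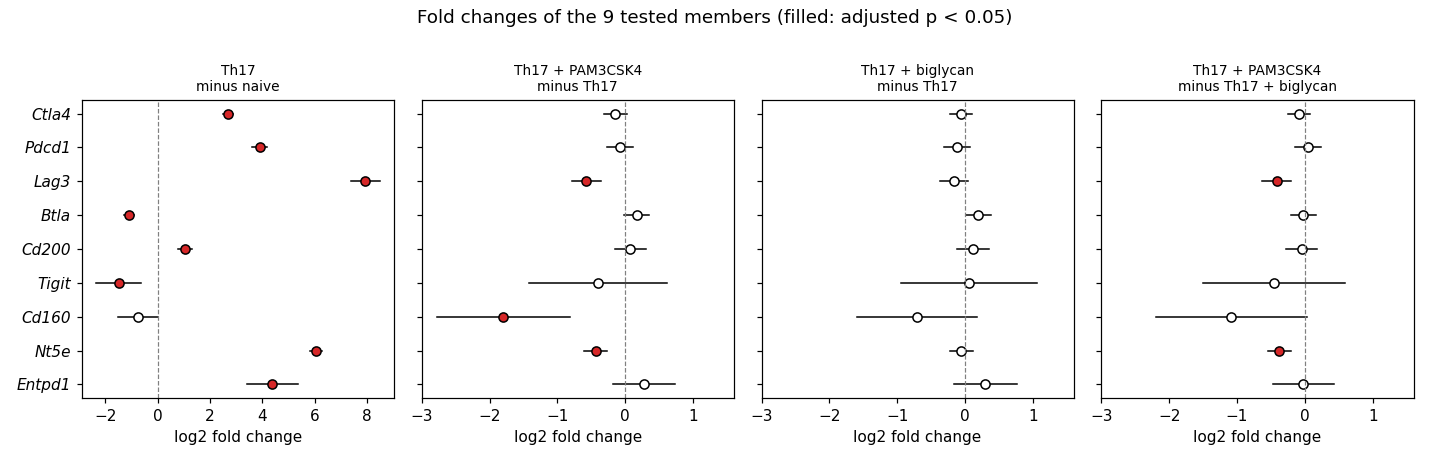
Log2 fold changes (horizontal axis) of the 9 tested genes in 4 comparisons, with 95% intervals as lines and filled points at an adjusted p under 0.05. The first panel has a wider axis than the others. Lag3 and Nt5e lie below 0 with PAM3CSK4 against both other cultures, and no point is filled for biglycan. The Lag3 value against naive cells rests on 3 naive counts.

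Partners of the receptors changed in part with PAM3CSK4. Of the 7 genes of the B7 and CD28 family, 1 rose and none fell, where 9.99% of all genes tested were called. Cd86 had 17.6 and 10.3 CPM in Th17 libraries and 31.5 and 32.5 CPM with PAM3CSK4, and rose by 1.18 ± 0.21 on the log2 scale (adjusted p = 0.000896; with DESeq2, 0.0568). Summed B cell markers, of which 0 of 7 passed the filter on low counts, were 0.580 to 1.01 CPM in Th17 and 2.27 to 3.35 CPM in PAM3CSK4 libraries, with Pax5 at 0 in the former and Ms4a1 at 0 in the latter. Blnk, named after its values were seen, had 3 against 27 counts, a ratio of 8.39 with a 95% counting interval of 2.58 to 43.2. The part of B cells in the level of Cd86 was not tested. Cd274 was at 12 and 8.22 CPM against 13.8 and 12 CPM and was not called (log2 difference 0.35, adjusted p = 0.220). Of the 11 tested partners of other receptors, 1 rose and 2 fell. Tnfrsf14, the HVEM gene, had 60.3 and 62.0 CPM in Th17 libraries and 44.5 and 40.8 CPM with PAM3CSK4. It fell by 0.52 ± 0.10 (adjusted p = 0.00242), a call that was lost without PAM3CSK4 replicate 4 (-0.46, adjusted p = 0.0560). Its ligand gene Tnfsf14 had 5.57 and 6.77 CPM against 9.96 and 10.4 CPM and rose by 0.73 ± 0.20 (adjusted p = 0.0215). Lgals9 fell by 0.28 ± 0.09 (adjusted p = 0.0421). The call for Tnfsf14 was lost with DESeq2 (adjusted p = 0.127) and without any 1 of the 4 libraries (adjusted p 0.0532 to 0.145), and that for Lgals9 with DESeq2 (adjusted p = 0.0999) and without Th17 replicate 2, PAM3CSK4 replicate 3 or PAM3CSK4 replicate 4 (adjusted p 0.161 to 0.407).

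In the adenosine and ATP list, none of 10 tested genes rose with PAM3CSK4 and 1 fell, where 9.99% of all genes tested were called. Slc29a1 had 103 and 100 CPM in Th17 libraries and 78.8 and 74.4 CPM with PAM3CSK4, a fall by 0.41 ± 0.09 (adjusted p = 0.00417; without PAM3CSK4 replicate 4, -0.37 and 0.0808). Adora2a, at 17.4 and 16.7 CPM against 15.6 and 15.7 CPM, and Ada were not called. None of the 8 tested genes for trafficking and shedding was called. Among 12 tested signalling genes, 1 rose and 2 fell, and Inpp5d, which encodes the phosphatase SHIP-1, rose by 0.43 ± 0.08 (adjusted p = 0.00131). Of 8 other tested inhibitory receptors and adaptors, none rose and 1 fell, Lair1, by 0.37 (adjusted p = 0.0313; with DESeq2, 0.116, and without Th17 replicate 1, PAM3CSK4 replicate 3 or PAM3CSK4 replicate 4, 0.15 to 0.293). Of 8 tested further nucleotide-hydrolysing or related enzymes, Enpp1 rose by 0.67 (adjusted p = 0.0125) and Art2b fell by 1.03 (adjusted p = 0.00715). The call for Enpp1 was lost without Th17 replicate 2, PAM3CSK4 replicate 3 or PAM3CSK4 replicate 4 (adjusted p 0.0651 to 0.113), and that for Art2b without Th17 replicate 2 (0.0814) or PAM3CSK4 replicate 4 (0.0840). Of the 20 linked transcription factors, 6 rose and 1 fell. Ahr, the aryl hydrocarbon receptor gene, rose by 1.04 ± 0.13 (adjusted p = 3.02e-05), Irf4 rose by 0.61 ± 0.09, and Tox, a factor known from exhausted T cells, fell by 1.00 ± 0.11 (adjusted p = 9.40e-06).

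Regulatory T cells also carry several of the 10 proteins. Of 10 markers of these cells, 4 rose and 1 fell with PAM3CSK4, where 9.99% of all genes tested were called, with a median log2 fold change of 0.087, and their summed level was 579 to 672 CPM in Th17 and 905 to 993 CPM in PAM3CSK4 libraries. Il2ra made up most of it, at a mean of 433 CPM against 754 CPM. Foxp3, the defining factor, named here after its values were seen, was at 2.81 CPM against 1.82 CPM and was not called (adjusted p = 0.260). Of 8 markers of naive T cells, 4 fell and none rose, with summed levels of 4098 to 4389 CPM in Th17 and 3485 to 3624 CPM in PAM3CSK4 libraries. Of 5 tested stromal markers, 1 fell, Pecam1, with sums over 7 genes of 161 to 217 CPM against 127 to 140 CPM and Dcn at 0 in both. With 1 library left out, the log2 value of Pecam1 ranged from -0.67 to -0.27. Pecam1 was also lower in Th17 than in naive libraries, at -1.15 to -0.75 with 1 library left out. The part of these markers in the falls of Lag3 and Nt5e was not tested.

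In the third comparison, biglycan cultures against Th17 cultures, none of the 10 genes was called. Among 9 tested genes edgeR called 0, as it did among all 11629 genes (0% called), and DESeq2 called 0 in both sets. By edgeR, 507 genes, or 4.36% of those tested, had an unadjusted p under 0.05, among them Btla as the only one of the inhibitory receptors and ectonucleotidases. The smallest adjusted p over all genes was 0.0828. The libraries did not overlap for 5 of the 9 genes, against 34.2% of all genes tested. This comparison uses the same Th17 libraries as the one with PAM3CSK4, so the values of both are not independent.

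Nt5e had 2392 and 2397 CPM with biglycan against 2502 and 2476 CPM, and the log2 difference of -0.06 had a 95% interval of -0.23 to 0.11. Lag3 had 49.8 and 45.4 CPM against 52.0 and 54.3 CPM, with a difference of -0.16 and an interval of -0.37 to 0.05. Ctla4 had 737 and 759 CPM, with an interval of -0.22 to 0.11. These intervals cover 0 and reach at most 0.37 below it. Btla had 98.5 and 96.9 CPM against 80.7 and 90.5 CPM, with a log2 difference of 0.19 and an interval of 0.01 to 0.38 before adjustment. Pdcd1, at 73.1 and 65.9 CPM, had an interval of -0.31 to 0.07. Cd200, at 44.3 and 38.1 CPM, had one of -0.11 to 0.35. Entpd1, at 9.78 and 8.46 CPM, lay above both Th17 libraries without a call, with an interval of -0.17 to 0.77. Cd160, at 10 and 14 counts, and Tigit, at 9 and 14 counts, had intervals of -1.60 to 0.17 and of -0.95 to 1.06, too wide to limit a difference of moderate size. In the lists of partners, nucleotide handling, signalling, trafficking and linked factors, edgeR also called no gene with biglycan.

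The fourth comparison set the PAM3CSK4 cultures directly against the biglycan cultures, and Lag3 and Nt5e were lower with PAM3CSK4. It uses the same PAM3CSK4 libraries as the second comparison, so the values of both are not independent. Of the 9 tested genes, 2 fell and none rose. Over all genes tested, 11.5% were called, 5.66% as higher and 5.88% as lower. The libraries did not overlap for 4 of the 9 genes, against 58.9% of all genes tested. Nt5e, at 1799 and 1878 CPM against 2392 and 2397 CPM, fell by 0.38 ± 0.08 on the log2 scale (adjusted p = 0.00430). Lag3, at 37.5 and 33.9 CPM against 49.8 and 45.4 CPM, fell by 0.41 ± 0.10 (adjusted p = 0.0120). Of 8 naive T cell markers 4 fell, with sums of 3485 to 3624 CPM against 4304 to 4318 CPM. Of 5 tested stromal markers 3 fell, Pecam1, Col1a2 and Col3a1, with sums over 7 genes of 127 to 140 CPM against 192 to 212 CPM. Pecam1 ranged from -0.64 to -0.48 on the log2 scale with 1 library left out and kept its call in all 9 alternatives. With 1 library left out, Col3a1 ranged from -4.34 to -0.32 and Col1a2 from -3.89 to -1.88 on the log2 scale. The values nearest 0 were those without biglycan replicate 7. With a robust spread estimate in edgeR's test, Col3a1 was not called (-2.73, adjusted p = 0.201). The part of the naive and stromal markers in the falls of Lag3 and Nt5e was not tested. The directions of Lag3 and Nt5e were the same in all 9 alternatives, but the calls were less firm than against Th17 cultures. The call for Lag3 was lost without biglycan replicate 7 (-0.35, adjusted p = 0.188) and without PAM3CSK4 replicate 4 (-0.34, adjusted p = 0.157). The call for Nt5e was lost without biglycan replicate 7 (-0.39, adjusted p = 0.0632), biglycan replicate 8 (-0.38, adjusted p = 0.0501) or PAM3CSK4 replicate 3 (-0.35, adjusted p = 0.0711).

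Cd160, at 5 and 9 counts with PAM3CSK4 and 10 and 14 counts with biglycan, differed by -1.09 on the log2 scale with an interval of -2.20 to 0.02 (adjusted p = 0.210). For Ctla4 the interval was -0.26 to 0.08, for Pdcd1 -0.15 to 0.24, for Btla -0.21 to 0.16 and for Cd200 -0.28 to 0.18. The other low genes were again the least well limited, with -0.47 to 0.43 for Entpd1 and -1.5 to 0.59 for Tigit. The transporter gene Slc29a1 stood at 78.8 and 74.4 CPM against 105 and 104 CPM and fell by 0.44 (adjusted p = 0.00219).

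Genes with the pattern most like that of the 3 genes that fell with PAM3CSK4 were sought by Pearson's r of log2 levels over the 8 libraries, among 9574 genes with a mean of at least 5 CPM. For Lag3 these were Hist1h2bb, Carhsp1 and Prss12, each with an r of 1.00. For Nt5e they were Ikzf3, Ank and Neu3, each also with an r of 1.00. Such values were common, since 1094 genes had an r above 0.98 with Lag3 and 1147 with Nt5e, and the distance between naive and cultured libraries makes up most of the range. Over the 6 cultured libraries alone, r with Lag3 was 0.995 for Hist1h2bb, 0.97 for Carhsp1 and 0.943 for Prss12. There, r with Nt5e was 0.934 for Ikzf3, 0.987 for Ank and 0.937 for Neu3. For Cd160 the most alike genes were Snx4 (r = 0.973), Ndrg3 (0.963) and Ube2d1 (0.963). These are descriptions over libraries that share groups.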

How the data were processed

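RNA was measured in 8 libraries in 4 groups of 2, grouped by the labels. Per the submitters' processing notes, Bowtie2, HTSeq and build mm9 were used. Their versions, the annotation and whether counting used strand were not given in the sources used here. Per the labels' protocols the kit was a stranded mRNA kit. The authors deposited raw counts per gene (23366 symbols; 5 summary lines that name no gene, with 86.3 to 88.3% of each column's total, were left out), RPKM values, and percent values for mapping (73.3 to 79.7% mapped), ribosomal RNA (1.43 to 3.04%) and mitochondrial RNA (9.87 to 16.1%). The deposited RPKM were used mainly within a library, since CPM over RPKM varied by a coefficient of 2.61 to 12.8% across libraries. This coefficient covers the 6 genes with enough counts. Within a library, the RPKM served to order genes and for ratios. For Tigit and Hmgb1, the RPKM were also compared between groups, as a second measure beside CPM. The count columns named 5 and 6 for biglycan were matched to replicates 7 and 8 by the library numbers in the authors' mapping table.

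From the counts, edgeR 4.0.16 (R 4.3.3) was run over 11629 genes that passed filterByExpr, with TMM scaling, 1 fit over all groups, the quasi-likelihood F test, 4 contrasts and Benjamini-Hochberg adjustment over all genes; an adjusted p under 0.05 is a call. CPM use TMM-scaled totals. Intervals are 95%; those of fold changes come from the fit, and counting intervals and floors of 3 counts cover counting error only. Scripts were tested on simulated data. The alternatives were DESeq2 1.42.0, RLE scaling, no filter, a robust spread estimate, fits on 2 groups, a replicate block and each library left out in turn. The members and the gene lists were chosen with earlier results of these data known. All 10 genes, their partners and the adenosine and ATP list may be named. From each other list the rule was at most 4 genes per comparison, the 2 risers and 2 fallers with the smallest p. The 3 most alike genes are named per gene that fell between cultures. Outside this rule, Ncr1, Tyrobp, Dcn, Pax5 and Ms4a1 were named for having 0 counts. Foxp3 and Blnk were named for their levels, and Foxo1, Sp1, Col1a2 and Col3a1 for calls that other fits changed. Upstream sequences are from RefSeq, build GRCm38.p6, which is not the build of the files, so no coordinate of one was used with the other.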

Additional observations from a re-analysis of the deposited data

Results flagged for a closer look

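Each result here was singled out because the PAM3CSK4 and biglycan cultures differed by a direct test (edgeR's quasi-likelihood test, adjusted p under 0.05). Among the inhibitory receptors and ectonucleotidases, the log2 difference (PAM3CSK4 minus biglycan) was -0.41 for Lag3 and -0.38 for Nt5e. Among the partners of the receptors, it was 0.89 for Cd274, 0.95 for Cd86 and -0.33 for Tnfrsf14. In the adenosine and ATP list it was -0.44 for Slc29a1 and 0.48 for P2rx7. The call for Cd274 was lost without biglycan replicate 7 (0.84, adjusted p = 0.0563), and that for Cd86 with DESeq2 (adjusted p = 0.160) and without biglycan replicate 7 (0.65, adjusted p = 0.137). The call for Tnfrsf14 was lost with DESeq2 (adjusted p = 0.118) and without any 1 of the 4 libraries (adjusted p 0.0526 to 0.471), and that for P2rx7 with DESeq2 (adjusted p = 0.132) and without biglycan replicate 7, biglycan replicate 8 or PAM3CSK4 replicate 3 (adjusted p 0.152 to 0.438).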

How the results depend on the processing

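Th17 against naive kept 8 called members in all 10 alternatives, and PAM3CSK4 against Th17 kept 2 to 3 in 9. For PAM3CSK4 against biglycan, leaving out 1 library gave 0 to 1 called members in place of 2. Over all genes, PAM3CSK4 against Th17 gave 1162 calls, 773 with DESeq2 and 361 to 938 with 1 library left out. PAM3CSK4 against biglycan gave 1342 calls, 881 with DESeq2, 2231 in a fit on the 2 groups only and 360 to 777 with 1 library left out. Biglycan against Th17 gave 0 calls, 29 without the filter on low counts and 1 to 6 with 1 library left out. Directions that reversed were all of uncalled members. With 1 library left out, PAM3CSK4 minus biglycan ranged from -0.14 to 0.077 for Btla, -0.15 to 0.063 for Cd200, -0.12 to 0.083 for Entpd1 and -0.023 to 0.12 for Pdcd1. PAM3CSK4 minus Th17 ranged from -0.15 to 0.010 for Pdcd1 and -0.78 to 0.19 for Tigit, and biglycan minus Th17 from -0.32 to 0.64 for Tigit. The cause was not tested. Naive and Th17 libraries share replicate numbers, and deviations of same-numbered libraries correlated at 0.04 over 11629 genes. With 2 pairs this cannot settle whether the libraries are paired, and the main fit did not pair them. With the replicate block, Th17 against naive gave 8051 calls and 8 called members, and P2rx4, Panx1, Foxo1 and Sp1 of the gene lists lost their calls (adjusted p 0.0542 to 0.0985). No paired analysis was run for the other comparisons, because those groups share no replicate number. The numbers come from the sample titles, and whether those cultures share mice or a batch is not in the labels. With 2 libraries per group and at most 30 counts for Tigit, Cd160 and Havcr2, depth limits what can be said of those genes.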
